A study of Oryctolagus cuniculus with 9 samples.

Results

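Collagen chains and the enzymes that modify, process and cross-link them were examined in RNA of primary rabbit cells labelled as parathyroid. The members were every gene of the deposited table named as a collagen chain, and 15 named enzymes and processing factors, taken at the row of highest mean where a name had several. This gave 49 genes of 19511 loci, 37 chains and 12 enzymes or processing factors, each with a single row, while P4HB, PLOD3 and SERPINH1 had no row of that name and were not analysed here. GA+H/R cells (labelled IRI with GA) were given gallic acid, a phenolic acid of plants, at 1200 µM for 24 h before 6 h of hypoxia and 6 h of reoxygenation. H/R cells (labelled IRI, with no treatment) went through the same hypoxia and reoxygenation, which stands in culture for ischaemia and reperfusion. Control cells (labelled WT, untreated) were taken at day 0. Each group had 3 libraries, and whether time in culture was matched between the groups is not stated.

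Collagens are trimers of chains that wind into a triple helix. In the endoplasmic reticulum, prolyl 4-hydroxylases stabilise the helix and lysyl hydroxylases prepare it for cross-linking. Outside the cell, procollagen proteinases trim the ends, the trimmed molecules assemble into fibrils, and lysyl oxidases join them by covalent cross-links. Fibroblasts and related stromal cells are the main source of fibrillar collagens in most organs, glands included.

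The label of the cells was set against marker lists. Of 8 parathyroid markers, 6 were in the table and 2 passed the expression filter. PTH, the parathyroid hormone, was at most 0.142 FPKM in any library, and 0 rows carried the names CASR or GCM2. The summed FPKM of the parathyroid list, rescaled as described below, was 117 to 131 in GA+H/R, 93.8 to 96.6 in H/R and 63.4 to 108 in control. With PTH that low, this sum came almost wholly from other markers of the list. Of 5 epithelial markers 4 were in the table and 0 passed. Of 9 fibroblast markers 7 were in the table, of which PDGFRB, THY1, DCN and MFAP5 passed and PDGFRA, DPT and FBLN1 did not. Their summed rescaled FPKM was 162 to 184 in GA+H/R, 195 to 207 in H/R and 229 to 640 in control. Of 7 smooth muscle and pericyte markers 5 were in the table and 4 passed. That list summed higher, to 2453 to 2521 in GA+H/R, 2989 to 3007 in H/R and 957 to 1647 in control. The sum of FPKM over all loci averaged 498124 ± 26668 in GA+H/R, 744230 ± 12247 in H/R and 1674788 ± 24633 in control (SD, n = 3), and the median locus was lower by as much as 1.77 on the log2 scale between groups as deposited. Libraries were therefore rescaled to a common median, and rose and fell are used here only of changes relative to the median locus that passed the test (limma, adjusted p under 0.05). FPKM are printed as deposited. Control 1 stood apart from the other controls, with r = 0.984 and 0.983 across loci to controls 2 and 3, which correlated at 0.997 with each other.

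Collagen genes took up a smaller share of the libraries after hypoxia and reoxygenation, and a smaller one again with gallic acid. The 49 members held 2.38%, 2.66% and 2.44% of the summed FPKM of the GA+H/R libraries. They held 5.32%, 5.45% and 5.30% in H/R, and 13.6%, 18.2% and 18.1% in control. The 3 groups did not overlap. This share does not depend on how libraries are scaled to each other, but such an order was not particular to collagen genes. Long housekeeping transcripts, taken up below, summed to 8171 to 8321 rescaled FPKM in GA+H/R, 11444.5 to 11576 in H/R and 16689 to 20210 in control. Short ones had the reverse order, at 2410 to 2453, 1597 to 1601 and 749 to 799. The part of transcript length in the share was not tested. COL1A2 alone made up 4.79% to 7.68% of a control library, and without it the members held 1.67% ± 0.0960 in GA+H/R, 3.64% ± 0.0555 in H/R and 10.7% ± 1.24 in control (SD, n = 3). An exact permutation test of 3 libraries against 3 cannot go below p = 0.10, so no test is given for shares and ratios. In bulk RNA, fewer cells of a type and less RNA per cell cannot be told apart.

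**Figure D1:**
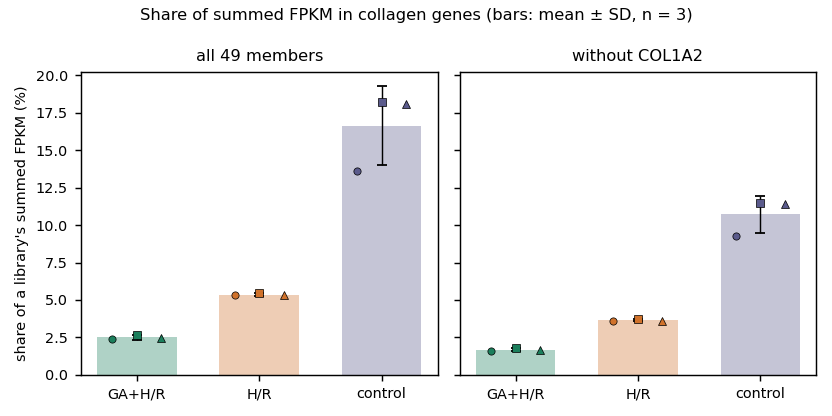
Share of each library's summed FPKM, in percent, held by all 49 collagen members (left) and by the members without COL1A2 (right), in GA+H/R, H/R and control. Bars are means with SD (n = 3) and symbols are libraries. The H/R libraries sit at 5.30% to 5.45%, above the GA+H/R libraries at 2.38% to 2.66% and below the controls at 13.6% to 18.2%.

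The filter left 36 of the 49 members for testing, 24 chains and all 12 enzymes and processing factors, and 30 of them were at rescaled FPKM of at least 1 in all 9 libraries. H/R cells were set against control cells to find what differed after hypoxia and reoxygenation. There, 22 members fell, 3 rose and 11 did not pass. Of all 10575 loci tested, 58.8% passed, 29.3% lower and 29.6% higher. The median change over the tested members was -0.80 on the log2 scale, against -0.0031 over all loci.

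GA+H/R cells were set against H/R cells to see the change that came with gallic acid. Here 24 members fell, 1 rose and 11 did not pass, where 35.1% of all loci passed, 15.6% lower and 19.5% higher. The median was -0.75 over the members and 0.0062 over all loci. A fit of these 2 groups only, whose spread leaves out the controls, called 28 members lower and 1 higher. It called 4059 of 10311 loci in either direction. In GA+H/R against control, 30 members fell, 0 rose and 6 did not pass, where 70.2% of loci passed, 36.2% lower and 34% higher. The medians were -1.61 over the members and -0.05 over all loci. A member that reached the filter only in the group where it was high had to differ, so the 30 members at rescaled FPKM of at least 1 in all 9 libraries were also counted alone. Of these, 22 fell and 2 rose in H/R against control, 23 fell and 1 rose with gallic acid against H/R, and 28 fell and 0 rose in GA+H/R against control. The H/R libraries enter both of the first comparisons and the control and GA+H/R libraries enter the third again, so these counts are not independent of each other. In what follows, the first comparison is H/R against control and the second is GA+H/R against H/R.

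On the deposited scale, where the median locus itself shifts, 34 members were lower and 0 higher in H/R against control, and 86% of loci were called lower and 4.18% higher. There were 32 lower and 0 higher in the second comparison (64.3% and 1.69% of loci) and 37 and 0 in the third (90.1% and 4.1%).

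Control 1 and transcript length moved with these counts. Without control 1, 26 members fell and 5 rose in H/R against control, 30 fell and 1 rose with gallic acid against H/R, and 28 fell and 3 rose with gallic acid against control. The shares of all loci called lower in that fit were 29.3%, 20.8% and 35.7%, and those called higher 31.2%, 23.4% and 35%. A list of long housekeeping transcripts had 36 members tested, of which 28 were lower and 0 higher in H/R than in control, with a median of -0.49. With gallic acid, 26 fell against H/R and 36 against control, with medians of -0.39 and -0.94, and 0 rose in either. Short housekeeping transcripts went the other way, 24 of 28 rising in H/R against control with a median of 0.96, and 17 in GA+H/R against H/R with a median of 0.33 (medians of -0.28 and -0.26 as deposited). When libraries were scaled to the long housekeeping transcripts instead, 16 members were lower and 7 higher in H/R against control, where 8.82% of loci were called lower and 50.2% higher. The counts were 16 and 1 in GA+H/R against H/R (3.69% of loci lower, 55.7% higher) and 20 and 6 in GA+H/R against control (6.58% and 68.3%). The part of transcript length in the changes of single members was not tested.

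**Figure D2:**
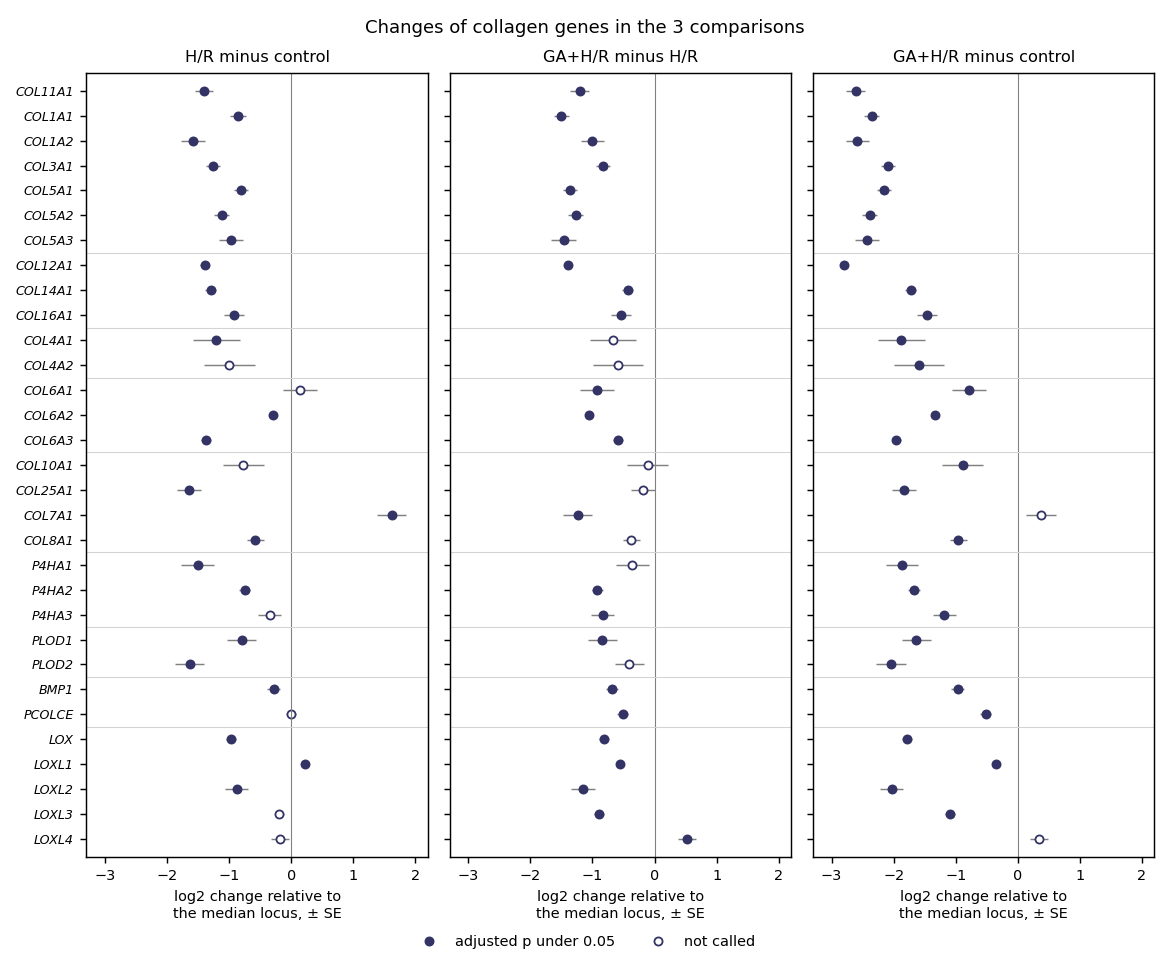
Log2 change relative to the median locus, with its standard error, for the 31 members with a mean of at least 10 FPKM in a group, for H/R over control (left), GA+H/R over H/R (middle) and GA+H/R over control (right). Filled points passed an adjusted p under 0.05 (limma, 3 libraries a group), and grey lines separate fibrillar chains, fibril-associated chains, basement membrane chains, type VI chains, other chains, prolyl 4-hydroxylases, lysyl hydroxylases, procollagen processing and lysyl oxidases. The 7 fibrillar chains are left of 0 in each panel, COL7A1 is at 1.62 in the first panel, and LOXL4 is at 0.53 in the second (0.31 and -0.13 as deposited).

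All 7 fibrillar chains with a mean of at least 10 FPKM in a group fell in H/R against control, and fell again in GA+H/R against H/R. COL1A1 and COL1A2 encode the chains of type I collagen, the main fibril of skin, bone and stroma. COL1A1 was at 62.1, 64.5 and 64.7 FPKM in GA+H/R, 287, 287 and 289 in H/R, and 1193, 1592 and 1551 in control. Its log2 change was -0.86 ± 0.13 in H/R against control (SE, limma adjusted p = 3.98e-04) and -1.50 ± 0.13 in GA+H/R against H/R (adjusted p = 5.96e-05). In the second comparison it stood at rank 15 from the lowest of 10575 loci. COL1A2 was at 4091, 4215 and 4199.5 FPKM in GA+H/R, 13217, 13242 and 13286 in H/R, and 78989.8, 130232 and 126258 in control. It changed by -1.58 ± 0.19 in H/R against control (adjusted p = 1.14e-04) and by -1.003 ± 0.19 in GA+H/R against H/R (adjusted p = 0.00391). For both chains no library of a group overlapped another group, a separation not counted over all loci. As deposited, 86% of all loci were called lower in H/R than in control, and 64.3% in GA+H/R than in H/R. Without control 1 the change in H/R against control was -1.02 for COL1A1 and -1.84 for COL1A2.

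COL3A1, the chain of type III collagen that accompanies type I in extensible tissue, was at 2131, 2180.1 and 2174 FPKM in GA+H/R, 6126, 6074 and 6097 in H/R, and 34335, 44563 and 42723 in control. It fell by 1.26 ± 0.11 in H/R against control (adjusted p = 1.92e-05) and by 0.83 ± 0.11 in GA+H/R against H/R (adjusted p = 7.45e-04). Its neighbour in the rabbit assembly is COL5A2, a chain of type V collagen, which starts type I fibrils and limits their width. COL5A2 was at 1170.4, 1163 and 1160.1 FPKM in GA+H/R, 4536, 4451 and 4392 in H/R, and 22288, 29813 and 28349 in control. Its changes were -1.12 ± 0.12 in H/R against control (adjusted p = 6.23e-05) and -1.27 ± 0.12 in GA+H/R against H/R (adjusted p = 1.17e-04).

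The other type V chains and COL11A1 fell in both comparisons. COL5A1 was at 236, 243 and 239 FPKM in GA+H/R, 959, 969.9 and 992 in H/R, and 4012, 5051 and 5062 in control, with changes of -0.81 ± 0.11 and -1.36 ± 0.11 in the first and second comparison (adjusted p = 2.78e-04 and 5.32e-05). COL5A3 was at 16.5, 14.8 and 16.2 FPKM in GA+H/R, 71.6, 69.9 and 70.8 in H/R, and 277, 449 and 454 in control, with changes of -0.97 ± 0.20 and -1.46 ± 0.20 (adjusted p = 0.00251 and 7.11e-04). COL11A1, a chain of the cartilage fibril type XI that also forms hybrids with type V chains, was at 71.3, 71.6 and 74.2 FPKM in GA+H/R, 266, 263 and 269 in H/R, and 1531, 2205 and 2169.8 in control. Its changes were -1.40 ± 0.15 and -1.21 ± 0.15 (adjusted p = 5.99e-05 and 5.05e-04). Groups did not overlap for any of these chains, a separation not counted over all loci. In GA+H/R against control the 7 chains fell by 2.09 (COL3A1) to 2.61 (COL11A1), and COL11A1 and COL1A2 stood at ranks 11 and 12 from the lowest of all loci.

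COL24A1, a fibrillar chain at low level, was at 1.02, 0.878 and 0.829 FPKM in GA+H/R, 1.68, 1.98 and 1.30 in H/R, and 3.82, 1.59 and 2.29 in control. Relative to the median locus it rose by 0.52 ± 0.17 in H/R against control (adjusted p = 0.0247), but as deposited it was at -0.39 (adjusted p = 0.102). The call was lost without H/R replicate 1 or 2 or control replicate 2 or 3 (adjusted p = 0.0613 to 0.0869).

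**Figure D3:**
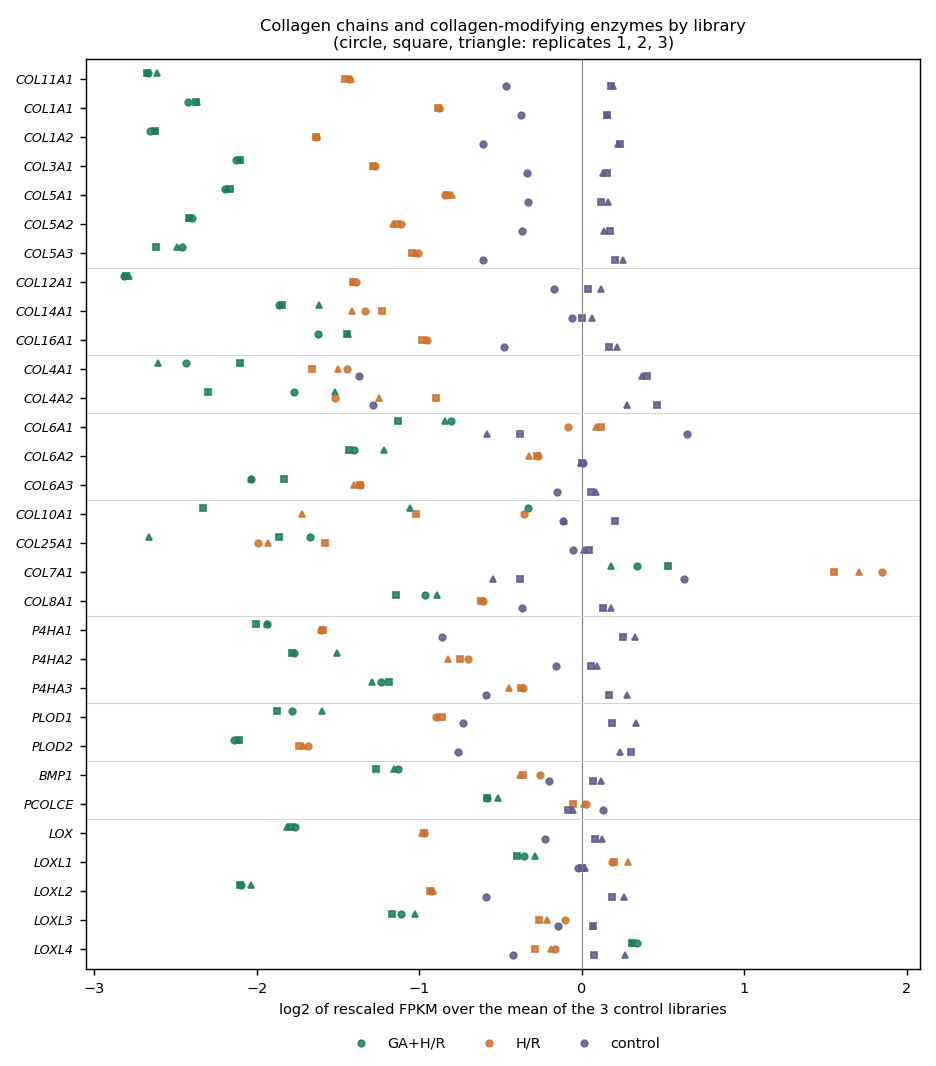
Log2 of rescaled FPKM over the mean of the 3 control libraries, for each library and each of the 31 members with a mean of at least 10 FPKM in a group, ordered by role. Green, orange and violet mark GA+H/R, H/R and control, and symbols mark replicates. The H/R libraries lie close together for most members, and COL7A1 in H/R is far to the right of its controls. Control 1 lies apart from controls 2 and 3 for many members, but not for COL6A2, LOXL1, COL25A1 or COL14A1.

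Fibril-associated collagens sit on the surface of fibrils and have interrupted helices. COL12A1 was at 1615, 1634 and 1656 FPKM in GA+H/R, 6875, 6816 and 6829 in H/R, and 47093, 50155 and 51528 in control. It fell by 1.40 ± 0.07 in H/R against control (limma adjusted p = 3.19e-07) and by 1.40 ± 0.07 again in GA+H/R against H/R (adjusted p = 3.75e-06). In GA+H/R against control its change of -2.80 ± 0.07 ranked 6 from the lowest of 10575 loci, and control 1 differed little here, with -2.87 when it was left out.

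COL14A1, found on fibrils of skin and tendon, had its larger fall in the first comparison. It was at 9.88, 10.1 and 11.7 FPKM in GA+H/R, 22.6, 24.4 and 21.4 in H/R, and 160.1, 154 and 157 in control, with changes of -1.29 ± 0.09 (adjusted p = 3.37e-06) and -0.43 ± 0.09 (adjusted p = 0.00589). Scaled to long housekeeping transcripts, the second change was 0.02 (adjusted p = 0.848). COL16A1, a minor fibril-associated chain, was at 50.4, 57.3 and 57.4 FPKM in GA+H/R, 128, 125 and 127 in H/R, and 519, 749 and 754 in control. Its changes were -0.93 ± 0.16 (adjusted p = 0.00105) and -0.54 ± 0.16 (adjusted p = 0.0298), and the second lost its call when any single GA+H/R or H/R library was left out (adjusted p = 0.0589 to 0.0864) and was -0.071 when scaled to long housekeeping transcripts (adjusted p = 0.716). COL21A1 was at 0.276, 0.283 and 0.0728 FPKM in GA+H/R, 1.43, 1.25 and 1.77 in H/R, and 4.87, 2.15 and 1.44 in control. It reached the filter in 4 libraries, the 3 of H/R and control 1, and so was tested only because it was higher there. Its values are therefore given with no test.

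COL4A1 and COL4A2, neighbours in the assembly, encode the chains of the type IV network beneath epithelium and endothelium. COL4A1 was at 1.46, 1.86 and 1.30 FPKM in GA+H/R, 4.61, 3.97 and 4.46 in H/R, and 14.3, 44.9 and 42.7 in control. COL4A2 was at 5.37, 3.75 and 6.41 FPKM in GA+H/R, 10.2, 15.7 and 12.3 in H/R, and 34.96, 108 and 93.1 in control. Control 1 was the low one for both, and the H/R changes were larger without it. In H/R against control COL4A1 fell by 1.21 ± 0.38 (adjusted p = 0.0214) and COL4A2 was at -0.996 ± 0.41 (adjusted p = 0.0611). The call of COL4A1 was lost without H/R replicate 2 or 3 or control replicate 2 or 3 (adjusted p = 0.0501 to 0.0810), and when scaled to long housekeeping transcripts (-0.77, adjusted p = 0.0959). Without control 1 the changes were -1.71 (adjusted p = 8.51e-06) and -1.50 (adjusted p = 5.27e-04). With gallic acid against H/R they were at -0.67 and -0.59 (adjusted p = 0.197 and 0.288), and at -0.66 and -0.59 without control 1 (adjusted p = 0.00212 and 0.0423). That comparison uses no control library, but all 3 groups share one estimate of the spread. In a fit of GA+H/R and H/R only, COL4A1 was called lower (adjusted p = 0.00654) and COL4A2 was not called. COL4A5 was at 0.0844 to 1.10 FPKM in GA+H/R, 0.958 to 1.48 in H/R and 4.58 to 7.21 in control, and passed the test in none of the 3 comparisons (adjusted p = 0.0971 to 0.684). GA+H/R replicate 1 was the low library, and without it H/R against control was at -0.51 (adjusted p = 0.0156), as it was at -0.49 in a fit of these 2 groups only (adjusted p = 0.0209) and at -1.59 as deposited (adjusted p = 2.26e-04).

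Type VI chains, which form beaded filaments around cells, did not move alike. COL6A3, the largest chain of the trimer, was at 59.1, 68.4 and 59.2 FPKM in GA+H/R, 149, 149.8 and 146 in H/R, and 1015, 1082 and 1076 in control. It fell by 1.37 ± 0.08 in H/R against control (adjusted p = 1.37e-06) and by 0.59 ± 0.08 in GA+H/R against H/R (adjusted p = 7.63e-04). The second change was -0.12 when scaled to long housekeeping transcripts (adjusted p = 0.233). COL6A2 was at 52.1, 51.3 and 59.5 FPKM in GA+H/R, 181, 181 and 175 in H/R, and 644, 593 and 574 in control. Its larger change was the second, -1.05 ± 0.06 (adjusted p = 1.00e-05), against -0.29 ± 0.06 in the first (adjusted p = 0.00366). That first change was -0.05 after quantile normalization (adjusted p = 0.487) and 0.19 when scaled to long housekeeping transcripts (adjusted p = 0.0381).

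COL6A1, which lies next to COL6A2, was at 9.30, 7.45 and 9.07 FPKM in GA+H/R, 24.3, 28.0 and 27.5 in H/R, and 118, 53.6 and 45.2 in control. Control 1 was the high one. In H/R against control it was at 0.14 ± 0.27 (adjusted p = 0.678), but at 0.52 without control 1 (adjusted p = 0.00597) and at -1.28 on the deposited scale (adjusted p = 0.00243). The fall in GA+H/R against H/R was 0.93 ± 0.27 (adjusted p = 0.0261, and 2.75e-04 without control 1), a call lost without GA+H/R replicate 2 or 3 or any H/R library (adjusted p = 0.0539 to 0.0797). It was -0.48 when scaled to long housekeeping transcripts (adjusted p = 0.156).

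COL7A1 was the member that rose most with hypoxia and reoxygenation. It encodes the anchoring fibrils that fix epithelial basement membranes to stroma. COL7A1 was at 3.80, 4.37 and 3.41 FPKM in GA+H/R, 17.2, 14.0 and 15.6 in H/R, and 21.7, 9.93 and 8.60 in control. As deposited, the H/R values lay inside the range of the controls. Relative to the median locus the 3 H/R libraries stood above all controls, a rise of 1.62 ± 0.24 (limma adjusted p = 3.97e-04), or 1.92 without control 1. The deposited scale gave 0.31 (adjusted p = 0.308). With gallic acid it fell by 1.24 ± 0.24 against H/R (adjusted p = 0.00420), and by 1.77 as deposited (adjusted p = 5.69e-04). Against control, GA+H/R was at 0.38 ± 0.24 (adjusted p = 0.185), at 0.68 without control 1 (adjusted p = 0.00132) and at -1.46 on the deposited scale (adjusted p = 6.20e-04).

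Among the remaining chains, COL25A1, a transmembrane collagen, was at 2.94, 2.59 and 1.48 FPKM in GA+H/R, 3.75, 5.003 and 3.92 in H/R, and 42.0, 41.5 and 39.6 in control. Relative to the median locus its called change lay in the first comparison, -1.65 ± 0.19 (adjusted p = 1.01e-04), with -0.19 ± 0.19 in the second (adjusted p = 0.486). As deposited the second was at -0.67 (adjusted p = 0.00800). The controls agreed closely for this gene, control 1 included. COL8A1, a short chain of network collagen in vessel walls and the cornea, was at 18.4, 16.3 and 19.4 FPKM in GA+H/R, 37.4, 37.1 and 37.4 in H/R, and 129, 169 and 170.1 in control. It fell by 0.58 ± 0.14 in the first comparison (adjusted p = 0.00578) and was at -0.38 ± 0.14 in the second (adjusted p = 0.0617, and 0.00296 without control 1). A fit of GA+H/R and H/R only gave COL8A1 an adjusted p of 0.00893 in the second. Scaled to long housekeeping transcripts, its changes were -0.11 and 0.080 (adjusted p = 0.497 for the first), and the second change of COL25A1 was 0.20.

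COL10A1, the collagen of hypertrophic cartilage, was at 2.09, 0.526 and 1.27 FPKM in GA+H/R, 3.26, 2.06 and 1.27 in H/R, and 11.3, 12.99 and 10.2 in control. It was at -0.77 ± 0.33 in H/R against control (adjusted p = 0.0731, and 0.101 without control 1). That change was called as deposited (-2.01, adjusted p = 8.59e-05), at equal totals (-1.04, adjusted p = 0.0170) and after quantile normalization (-0.93, adjusted p = 0.0327). It was also called in a fit of these 2 groups only (adjusted p = 0.0265) and without GA+H/R replicate 1 or 2 or H/R replicate 1 (adjusted p = 0.0286 to 0.0404). In GA+H/R against control COL10A1 fell by 0.89 ± 0.33 (adjusted p = 0.0386), a call lost without any one of the controls, GA+H/R replicate 2 or 3 or H/R replicate 2 (adjusted p = 0.0547 to 0.124). This fall was -0.17 when scaled to long housekeeping transcripts (adjusted p = 0.674). COL15A1 and COL28A1 stayed under 6 FPKM in every library and did not pass relative to the median locus with all 9 libraries, while on the deposited scale they were at -1.01 and -1.07 in H/R against control (adjusted p = 7.23e-04 and 0.00146). The 13 chains under the filter were COL2A1, COL11A2, COL9A2, COL9A3, COL19A1, COL4A3, COL4A4, COL4A6, COL6A5, COL6A6, COL17A1, COL23A1 and COL26A1, and reached at most 4.39 FPKM in a library (COL6A6 in control 1).

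Prolyl 4-hydroxylases add the hydroxyl groups that hold the helix together at body temperature, and P4HA1, P4HA2 and P4HA3 are their catalytic subunits. P4HA1 and P4HA2 are known targets of hypoxia-inducible factor in several cell types, as are PLOD2 and LOX. P4HA1 was at 259.5, 249 and 261 FPKM in GA+H/R, 518, 524 and 519 in H/R, and 2553, 5090.2 and 5220.1 in control. It fell by 1.51 ± 0.26 in H/R against control (limma adjusted p = 0.00103) and by 1.88 without control 1. Against H/R, GA+H/R was at -0.36 ± 0.26 (adjusted p = 0.319), with a spread shared with the controls. A fit of these 2 groups only called P4HA1 lower at -0.36 (adjusted p = 6.10e-05). Without control 1 it was also at -0.36 (adjusted p = 2.83e-05). When scaled to long housekeeping transcripts it was at 0.11, the other direction. P4HA2 was at 91.3, 91.1 and 109.6 FPKM in GA+H/R, 303, 294 and 280.3 in H/R, and 1295, 1389.6 and 1389 in control, falling by 0.75 ± 0.09 and by 0.92 ± 0.09 (adjusted p = 1.29e-04 and 1.54e-04). P4HA3 was at 69.6, 72.4 and 67.1 FPKM in GA+H/R, 202, 201 and 191 in H/R, and 508, 792 and 831 in control. It was at -0.35 ± 0.19 in the first comparison (adjusted p = 0.143, and 1.70e-05 without control 1) and fell by 0.84 ± 0.19 in the second (adjusted p = 0.00890). When scaled to long housekeeping transcripts the first was at 0.13 and the second at -0.37 (adjusted p = 0.108 for the second).

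Lysyl hydroxylases act on lysines of the helix (PLOD1) and of the telopeptides at its ends (PLOD2). PLOD2 was at 207, 212 and 211 FPKM in GA+H/R, 449.5, 435 and 442 in H/R, and 2500.5, 4822 and 4493 in control. Its fall of 1.64 ± 0.23 in H/R against control (adjusted p = 3.38e-04) ranked 40 from the lowest of 10575 loci. Against H/R, GA+H/R was at -0.41 ± 0.23 (adjusted p = 0.208, and 7.92e-06 without control 1). A fit of these 2 groups only called PLOD2 lower (adjusted p = 1.81e-05). When scaled to long housekeeping transcripts it was at 0.060. PLOD1 was at 10.8, 10.2 and 12.4 FPKM in GA+H/R, 31.8, 32.7 and 32.2 in H/R, and 105, 182 and 197 in control, falling by 0.79 ± 0.23 and by 0.84 ± 0.23 (adjusted p = 0.0165 and 0.0221). The first call was lost without control 2 or 3 (adjusted p = 0.0661 and 0.0625), the second without GA+H/R replicate 1 or 2 or any H/R library (adjusted p = 0.0554 to 0.0666). When scaled to long housekeeping transcripts they were at -0.32 and -0.39 (adjusted p = 0.246 and 0.163). The control 1 value was the lowest control for both genes and still above every H/R library.

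Both procollagen processing factors fell in the second comparison. BMP1, the proteinase that removes the C-terminal propeptide, was at 1.71, 1.56 and 1.69 FPKM in GA+H/R, 4.96, 4.62 and 4.58 in H/R, and 15.1, 16.8 and 17.0 in control. It fell by 0.69 ± 0.10 in GA+H/R against H/R (adjusted p = 0.00110). Its fall of 0.28 ± 0.10 in H/R against control (adjusted p = 0.0378) was 0.13 in the other direction when scaled to long housekeeping transcripts (adjusted p = 0.284), and lost its call without any one of the H/R libraries or control 2 or 3 (adjusted p = 0.0551 to 0.149). PCOLCE, an enhancer of that cleavage, was at 5.65, 5.69 and 5.93 FPKM in GA+H/R, 13.7, 12.9 and 13.6 in H/R, and 43.1, 34.2 and 34.2 in control. It was at -0.0023 ± 0.08 in the first comparison (adjusted p = 0.984) and fell by 0.52 ± 0.08 in the second (adjusted p = 0.00188), a change of -0.080 when scaled to long housekeeping transcripts (adjusted p = 0.465).

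Lysyl oxidases, which start the covalent cross-links of collagen and elastin, divided within the family. LOX was at 1547, 1537 and 1505 FPKM in GA+H/R, 4274, 4282 and 4244 in H/R, and 20972, 23895 and 24043 in control, falling by 0.97 ± 0.08 and by 0.81 ± 0.08 (limma adjusted p = 1.35e-05 and 1.55e-04). LOXL2, which cross-links type IV collagen among others, was at 242, 242 and 253 FPKM in GA+H/R, 863, 862 and 874 in H/R, and 3204, 5048 and 5194 in control, falling by 0.88 ± 0.19 and by 1.15 ± 0.19 (adjusted p = 0.00328 and 0.00183). In each case no group overlapped another, which again was not counted over all loci. The first change of LOXL2 was -0.40 when scaled to long housekeeping transcripts (adjusted p = 0.0855).

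LOXL3 and LOXL1 fell in the second comparison. LOXL3 was at 45.4, 43.9 and 48.3 FPKM in GA+H/R, 145, 129.9 and 134 in H/R, and 412, 442 and 430.2 in control. It was at -0.19 ± 0.08 in H/R against control (adjusted p = 0.0635) and fell by 0.90 ± 0.08 in GA+H/R against H/R (adjusted p = 7.07e-05). The first depended on the scale. It was at 0.29 when scaled to long housekeeping transcripts (adjusted p = 0.0113), but at -0.25 without control 1 (adjusted p = 0.00763). At equal totals it was -0.48 (adjusted p = 2.08e-04), and as deposited -1.64 (adjusted p = 2.34e-08). LOXL1, tied to elastic fibres, was at 46.7, 45.6 and 49.1 FPKM in GA+H/R, 108, 109 and 116 in H/R, and 274, 257 and 254 in control. Relative to the median locus it rose by 0.22 ± 0.06 in H/R against control (adjusted p = 0.00844), but it was at -1.23 as deposited (adjusted p = 8.34e-08) and at -0.07 at equal totals (adjusted p = 0.437). It fell by 0.56 ± 0.06 in GA+H/R against H/R (adjusted p = 1.43e-04), a change of -0.099 when scaled to long housekeeping transcripts (adjusted p = 0.162).

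LOXL4 was the 1 member called higher with gallic acid. It was at 129.9, 128 and 128 FPKM in GA+H/R, 146, 134 and 143 in H/R, and 358, 465 and 518 in control. As deposited the GA+H/R libraries lay just below the H/R libraries (-0.13, adjusted p = 0.331), while relative to the median locus they lay above all 3 of them, a rise of 0.53 ± 0.15 (adjusted p = 0.0216). Without any one of GA+H/R replicates 1, 2 and 3 or H/R replicates 2 and 3 the adjusted p was 0.0505 to 0.0702, and without control 1 it was 1.42e-04. In H/R against control LOXL4 was at -0.19 ± 0.15 (adjusted p = 0.301), at -0.37 without control 1 (adjusted p = 9.20e-04) and at 0.29 when scaled to long housekeeping transcripts.

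The balance between related members can be read within a library, where the scale of the libraries cancels. These pairs were chosen after values had been seen, and each ratio is set to a mean of 1 in control, since levels of different genes are not on a proven common scale. The ratio of LOXL4 to LOX was 4.34, 4.31 and 4.38 in GA+H/R, 1.76, 1.62 and 1.75 in H/R, and 0.881, 1.01 and 1.11 in control. LOXL1 over LOX was 2.69 ± 0.136 in GA+H/R, 2.27 ± 0.101 in H/R and 1 ± 0.122 in control (SD, n = 3). In both the 3 groups stood apart from each other. LOXL2 over LOX was 0.831 ± 0.0328 in GA+H/R, 1.05 ± 0.0129 in H/R and 1 ± 0.182 in control, where control 1 (0.790) lay below the GA+H/R libraries.

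Some other pairs were furthest from control in H/R and nearer to it in GA+H/R. COL1A1 over COL1A2 was 1.15, 1.16 and 1.17 in GA+H/R, 1.64, 1.64 and 1.65 in H/R, and 1.14, 0.926 and 0.930 in control. COL6A2 over COL6A3 was 1.54 ± 0.222 in GA+H/R, 2.11 ± 0.0146 in H/R and 1 ± 0.0958 in control (SD, n = 3). P4HA3 over P4HA1 was 1.59 ± 0.101 in GA+H/R, 2.22 ± 0.0680 in H/R and 1 ± 0.141 in control, and PLOD1 over PLOD2 was 1.29 ± 0.127, 1.77 ± 0.0541 and 1 ± 0.0751 in the same groups. For each of these pairs every H/R library lay above every GA+H/R library and every control. COL5A1 over COL5A2 had the same order over a narrower range, at 1.14 to 1.19 in GA+H/R, 1.20 to 1.28 in H/R and 0.963 to 1.02 in control. The remaining pairs were less clear. P4HA2 over P4HA1 and COL6A1 over COL6A3 had means of 1.09 and 2.02 in GA+H/R and 1.61 and 2.59 in H/R, but control 1 was at 1.45 and 1.68. Means of COL5A3 over COL5A1 and COL11A1 over COL5A2 were below control, at 0.804 and 0.851 in GA+H/R and 0.881 and 0.817 in H/R. LOXL3 over LOX overlapped between GA+H/R (1.53 to 1.72) and H/R (1.63 to 1.81). COL4A1 over COL4A2 overlapped between all groups.

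**Figure D4:**
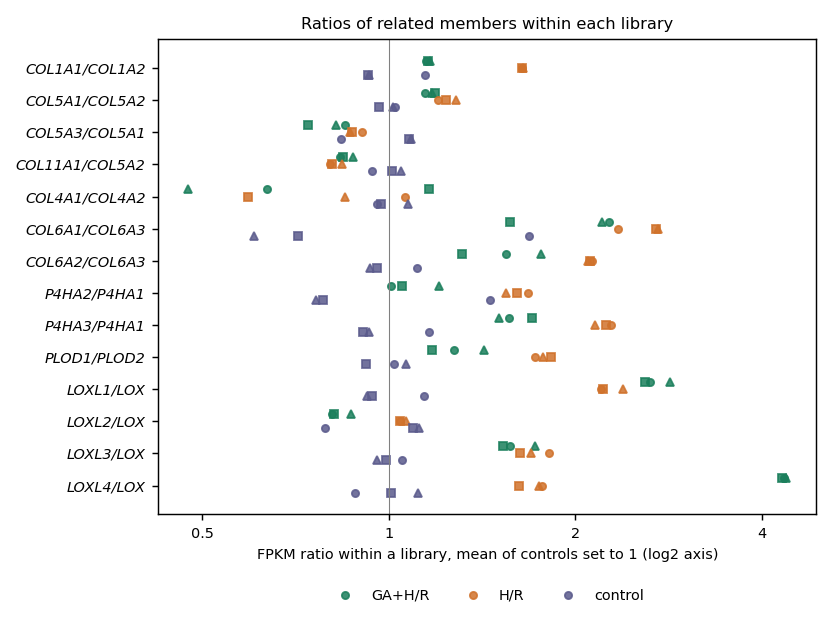
Ratios of FPKM between related members within each library, on a log2 axis, with the mean of the 3 controls set to 1. Green, orange and violet mark GA+H/R, H/R and control, with GA+H/R drawn uppermost in each row. The ratio of LOXL4 to LOX is at 4.31 to 4.38 in GA+H/R, and COL1A1 over COL1A2 is at 1.64 to 1.65 in H/R, apart from both other groups.

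The median spread between controls was larger for the collagen genes than for all loci, and that within H/R and within GA+H/R smaller. Members and loci were not matched for level of expression. Over the 30 members at rescaled FPKM of at least 1 in all 9 libraries, the median coefficient of variation was 4.44% in GA+H/R, 1.79% in H/R and 19.8% in control. Over all 8900 such loci it was 9.65%, 7.14% and 10.2%. After rescaling, control 1 was below both other controls for 28 of the 36 tested members and above both for 8. The ratio of control 1 to the mean of controls 2 and 3 ran from 0.297 for COL4A1 and 0.316 for COL4A2 to 2.18 for COL6A1 and 2.48 for COL21A1, with a median of 0.760, against 1.02 over all loci tested. P4HA1, PLOD2 and PLOD1 were at 0.451, 0.489 and 0.503, while COL6A2, LOXL1, COL25A1 and COL14A1 were at 1.01, 0.977, 0.944 and 0.938.

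**Figure D5:**
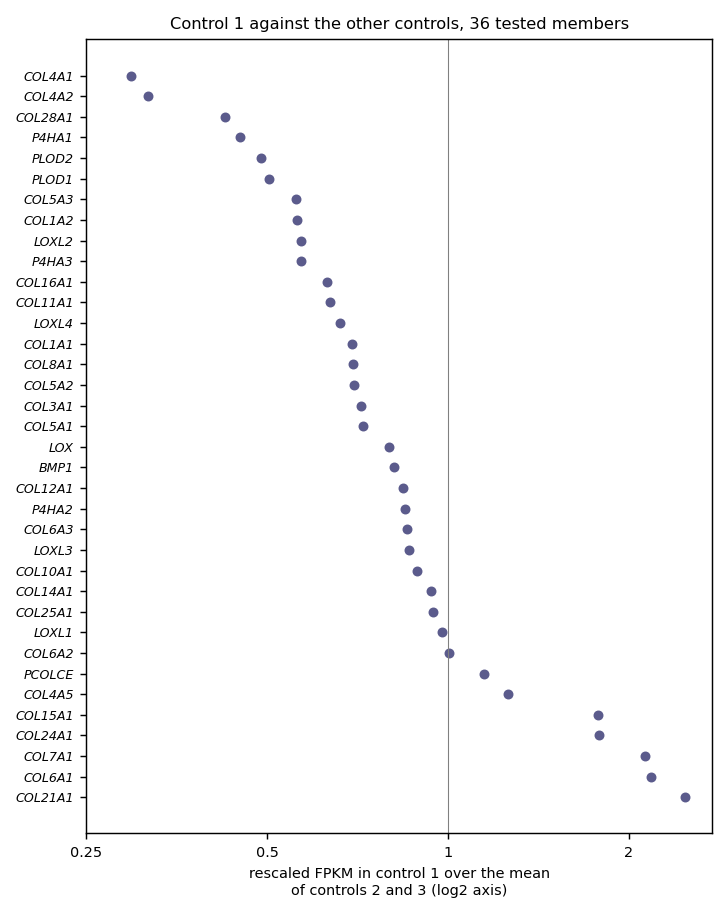
Rescaled FPKM in control 1 divided by the mean of controls 2 and 3, on a log2 axis, for the 36 tested members ordered by the ratio. The ratios run from 0.297 (COL4A1) to 2.48 (COL21A1), with 28 members at which control 1 is the lowest control.

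The members that passed or failed without control 1 included enzymes and basement membrane chains. In H/R against control, COL4A2, P4HA3, LOXL3 and LOXL4 were called lower, and COL6A1 higher, in the fit without it and not with it, COL21A1 left aside. Between GA+H/R and H/R the added falls were COL4A1, COL4A2, COL8A1, COL15A1, P4HA1 and PLOD2. Between GA+H/R and control, COL10A1 lost its call, and COL24A1, COL7A1 and LOXL4 were higher by 0.52, 0.68 and 0.16.

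The other genes of the collagen pathway are given by list. Of 32 symbols for folding and export of procollagen, older symbols included, 20 were in the table and 19 tested. In H/R against control 7 fell and 4 rose, while with gallic acid 8 fell and 2 rose against H/R, with medians of -0.27 and -0.18. Over all loci 29.3% fell and 29.6% rose in the first comparison, and 15.6% and 19.5% in the second. FKBP14, an isomerase of the endoplasmic reticulum, fell by 1.25 ± 0.09 and 0.41 ± 0.09 in the first and second comparison (limma adjusted p = 3.95e-06 and 0.00665). SPARC, a collagen-binding matricellular protein, fell by 1.07 ± 0.12 and 0.65 ± 0.12 (adjusted p = 8.78e-05 and 0.00392), and MIA3 (TANGO1), which loads procollagen into transport carriers, fell by 0.69 ± 0.08 and 0.54 ± 0.08 (adjusted p = 1.06e-04 and 0.00124). SEC13, a coat protein of the same vesicles, rose by 1.55 ± 0.08 and 0.29 ± 0.08 (adjusted p = 3.74e-07 and 0.0183). On the deposited scale SEC13 was at 0.17 and -0.36, with 20.8, 21.9 and 21.3 FPKM in GA+H/R, 27.9, 27.3 and 27.7 in H/R, and 24.5, 26.1 and 22.7 in control.

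Of 8 procollagen processing factors beyond the members, 6 were tested, 2 of which fell and 0 rose in each of the first and second comparisons, and 4 fell in GA+H/R against control. With 6 genes these shares can be set only loosely against the 29.3%, 15.6% and 36.2% of all loci called lower. ADAMTS2, the proteinase that removes the N-terminal propeptide of fibrillar procollagens, fell by 0.88 ± 0.09 and 0.59 ± 0.09 (adjusted p = 5.39e-05 and 0.00161). Its relative ADAMTS3 fell by 1.07 ± 0.20 in the first comparison (adjusted p = 0.00147), and ADAMTS14 by 0.93 ± 0.18 in the second (adjusted p = 0.00418). PCOLCE2 was at 3.91, 4.94 and 5.51 FPKM in GA+H/R, 8.95, 7.77 and 7.80 in H/R, and 10.4, 57.1 and 52.8 in control, and its change in H/R was -0.49 ± 0.53 (adjusted p = 0.451), or -1.23 without control 1 (adjusted p = 9.29e-05).

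Of 12 collagen receptors and turnover genes, 10 were in the table and 8 tested. Of these, 5 fell and 1 rose in H/R against control, while 4 fell and 1 rose with gallic acid against H/R, where the shares of all loci are those just given. MRC2 (Endo180), which takes up collagen fragments, fell by 1.07 ± 0.15 and 1.06 ± 0.15 (adjusted p = 2.86e-04 and 9.05e-04). The integrin chain ITGB1 fell by 0.97 ± 0.13 and 0.71 ± 0.13 (adjusted p = 2.45e-04 and 0.00356), and its collagen-binding partner ITGA11 by 1.23 ± 0.39 in the first comparison (adjusted p = 0.0240), or 1.77 without control 1 (adjusted p = 4.29e-06). FAP, a fibroblast serine protease, fell by 1.66 ± 0.27 in the first comparison (adjusted p = 7.64e-04) and was at 0.31 ± 0.27 in the second (adjusted p = 0.409, and 0.00347 without control 1).

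Marker lists of other cell types went different ways, on few tested genes each. Of all loci, 29.3% fell and 29.6% rose in H/R against control, and 15.6% fell and 19.5% rose in GA+H/R against H/R. With 4 or 5 tested genes a list, the counts below can be set only loosely against these shares. Of 9 fibroblast markers, 7 were in the table and 4 tested. In H/R against control 3 fell and 0 rose, while with gallic acid 1 fell and 0 rose against H/R. PDGFRA, DPT and FBLN1 were under the filter, and the summed rescaled FPKM of the list was 162 to 184 in GA+H/R, 195 to 207 in H/R and 229 to 640.2 in control, with control 1 the lowest. Of 9 macrophage markers, 8 were in the table and 5 tested, of which 2 rose in H/R against control and 5 with gallic acid against H/R (medians of 0.66 and 1.74, or -0.040 and 1.96 as deposited). AIF1, TYROBP and C1QC were under the filter. The summed rescaled FPKM of this list was 211 to 226 in GA+H/R, 20.7 to 21.1 in H/R and 1.76 to 24.98 in control, again with control 1 the lowest. Of 6 cartilage and bone markers 4 were tested, of which 3 fell in H/R against control, and 2 with gallic acid against H/R. The smooth muscle list, with 4 tested, had 1 that rose and 0 that fell in H/R against control, while 2 fell with gallic acid against H/R. The part of these cell types in the changes of the collagen genes was not tested.

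The authors' deposited table marks 38 of the 49 members as significant in its single test across the 3 groups, and 10917 of all loci. That test names no pair of groups.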

How the data were processed

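The 9 libraries were built from total RNA of primary rabbit cells with a TruePrep kit for Illumina sequencing, per the labels' protocols. Per the file headers, the authors deposited FPKM (fragments normalised for length and depth) of 19511 loci, a column a library, and a p-value and q-value of a single test across the 3 groups that names no pair. The aligner, quantification and test are not given in the sources used here, and the submitters' processing notes name GRCm38 and mm10, builds of the mouse, but the transcripts listed are those of rabbit, and coordinates are therefore left out. No read counts are given and the depth per library is unknown, so no counting interval can be stated and the precision is that of 3 libraries a group. The labels do not say whether those came from separate cultures or animals, so p-values measure the spread between libraries, which may be technical.

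Scale factors were taken as the median ratio of a library to the mean of the 9, using loci whose FPKM reached 1 in each. A locus entered the test where its rescaled FPKM reached 1 in 3 or more libraries. Log2(rescaled FPKM + 1) was modelled in limma 3.58.1 (R 4.3.3) with 3 group means over the 9 libraries, using the trend and robust options of eBayes. Two-sided p-values received Benjamini-Hochberg adjustment across the loci tested, with a call at an adjusted p under 0.05. The changes are on the log2(value + 1) scale, which understates changes of low genes. The pipeline was tested on simulated data.

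The members and gene lists were chosen with earlier results of these data known. Values in every library are given for members with a mean of at least 10 FPKM in at least 1 group, and of 3 other lists up to 4 such genes with the largest change. The alternatives were the deposited scale, equal totals, quantile normalization, an added 0.1, no filter, fits of 2 groups only, a replicate block, eBayes without trend or robust settings, and leaving out each library. Scaling to long housekeeping transcripts, and counting members at FPKM of at least 1 in all 9 libraries, were chosen after seeing the data. Neighbouring genes were read from the RefSeq table of the rabbit assembly mOryCun1.1, in which all 49 members had a symbol.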

Additional observations from a re-analysis of the deposited data

How the results depend on the processing

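Of 80 member calls over the 3 comparisons, 52 kept their direction and passed the threshold under every alternative run, and 28 did not under at least 1. On the deposited scale, 9922 loci were called in H/R against control and 7255 in GA+H/R against H/R, with 4.64% and 2.56% of calls higher (50.3% and 55.5% in the scale used), and 4.35% in GA+H/R against control (48.4%). At equal totals 32%, 42.1% and 32.8% of calls were higher. With the deposited scale 34 members were lower and 0 higher in H/R against control, and 0 were higher in GA+H/R against H/R. Members called higher in H/R against control numbered 1 at equal totals, 5 with no filter and 7 scaled to long housekeeping transcripts, and in GA+H/R against control 1 after quantile normalization, 1 with no filter and 6 scaled to long housekeeping transcripts. That last scaling called 6356 loci in GA+H/R against H/R. Leaving out each library gave 2 to 5 members higher and 19 to 26 lower in H/R against control, 0 to 1 higher and 21 to 30 lower with gallic acid against H/R, and 0 to 3 higher and 28 to 30 lower in GA+H/R against control. The loci called were 5376 to 6285, 2718 to 4547 and 6691 to 7265.

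Among members called on either scale, directions turned on the deposited scale in H/R against control for COL24A1 (-0.39), COL6A1 (-1.28) and LOXL1 (-1.23, and -0.069 at equal totals), in GA+H/R against H/R for LOXL4 (-0.13), and in GA+H/R against control for COL24A1 (-0.85), COL28A1 (-1.22), COL7A1 (-1.46) and LOXL4 (-1.77). Scaled to long housekeeping transcripts, members called on either scale turned in H/R against control for COL6A2 (0.19), BMP1 (0.13), PCOLCE (0.45) and LOXL3 (0.29), in GA+H/R against H/R for COL14A1 (0.022), and in GA+H/R against control for COL6A1 (0.12), PCOLCE (0.37) and LOXL1 (0.60). Members called on neither scale are left out here, although the sign of some turned too. These scalings differ by the shift of the median locus or of the long transcripts between groups. Replicate numbers did not pair libraries: deviations of same-numbered libraries from their group means correlated at -0.016 to 0.0287. With a replicate block 21 members were lower and 3 higher in H/R against control, 24 and 1 with gallic acid against H/R, and 30 and 0 in GA+H/R against control. The block ended the call of BMP1 in H/R against control (adjusted p = 0.0688), and 4 of 9 libraries correlated best with their own number in another group. Depth is unknown, so how far it limits the low chains cannot be stated.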
